A study of Drosophila melanogaster with 4 samples.

Results

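RU486 feeding was examined in thoraces of Act88FGS>w1118 flies, which carry the inducible driver but no RNAi transgene. The comparison takes 2 of the 4 libraries of the series, 1 from flies fed RU486 and 1 from flies given the ethanol vehicle, and reads their log2 difference in all 13012 genes of the table. The question it answers is what differed between flies given RU486 and flies given the vehicle when no gene was targeted. The other 2 libraries came from Act88FGS>UAS-MEF2 RNAi flies, again given RU486 or the vehicle, and show what the control pair shares with a separate pair. Each of the 4 pools held 8 thoraces of females aged 10 days in the labels and kept on a high calorie diet, and RU486 was given at 100 µM. With 1 library per condition, no difference has a replicate check, no test was possible, and RU486 cannot be told apart from any other way in which 2 pools of 8 thoraces may differ.

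GeneSwitch drivers such as Act88FGS are fusions of the GAL4 DNA-binding domain with the ligand-binding domain of the progesterone receptor, and they enter an active state when RU486 (mifepristone), a synthetic steroid, is fed to the fly. The Act88F promoter gives activity in the indirect flight muscle of the thorax, and a fly without a UAS transgene has nothing for the activated driver to express. A dissected thorax holds flight and leg muscle, cuticle, trachea, fat body, ganglia and the foregut and anterior midgut, so an RNA preparation from it can carry transcripts of several tissues.

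The deposited value of a gene is on a log2 scale centred at that gene's own mean, since its 4 values sum to 0. It gives no expression level, so whether a muscle or other marker is strongly expressed or near 0 cannot be read from it, and read depth is unknown. In 2098 genes (16.1%) every library lay within 0.1 of 0. These flat genes had a median difference of 0.04, and all 2098 fell below 0 once the libraries were median-centred, with a median of -0.31. A centred median below 0 in a list with many flat genes therefore reflects that compression in part.

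The +RU486 library of w1118 flies stood higher than its ethanol control across most of the table. The median over all genes was 0.17 with RU486 and -0.18 without it. The median log2 difference was 0.36, a fold of 1.28, and 12113 genes (93.1%) lay above 0. In MEF2 RNAi flies the same contrast ran the other way, with library medians of -0.18 and 0.19 and a median difference of -0.38. How the authors normalized the values is not given in the sources used here, and the part of normalization in these opposite shifts was not tested. On the deposited scale 851 genes (6.54%) reached a fold of 1.5 in w1118 flies and 5 (0.0384%) were at or under a fold of 0.65. At folds of 2 and 0.5 the counts were 134 (1.03%) and 2 (0.0154%). Subtracting each library's median left 162 genes higher (1.25%) and 25 lower (0.192%), or 50 (0.384%) and 5 (0.0384%) at the wider folds. Unless a deposited value is named, differences below are median-centred. "Higher" and "lower" mean past those folds, which is a size and not a test. At these shares a short list may well hold no such gene, so a count of 0 in a list is not a result about it. Centring took 0.35 from every w1118 difference and -0.36 from every MEF2 RNAi difference, so a gene that did not move on the deposited scale lies at about -0.35 in the one and 0.36 in the other. The nearest genes on either side of the upper limit were CG7084 at 0.59 and Tektin-C at 0.58, and those of the lower limit were CG5079 at -0.63 and CG42240 at -0.62.

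**Figure D1:**
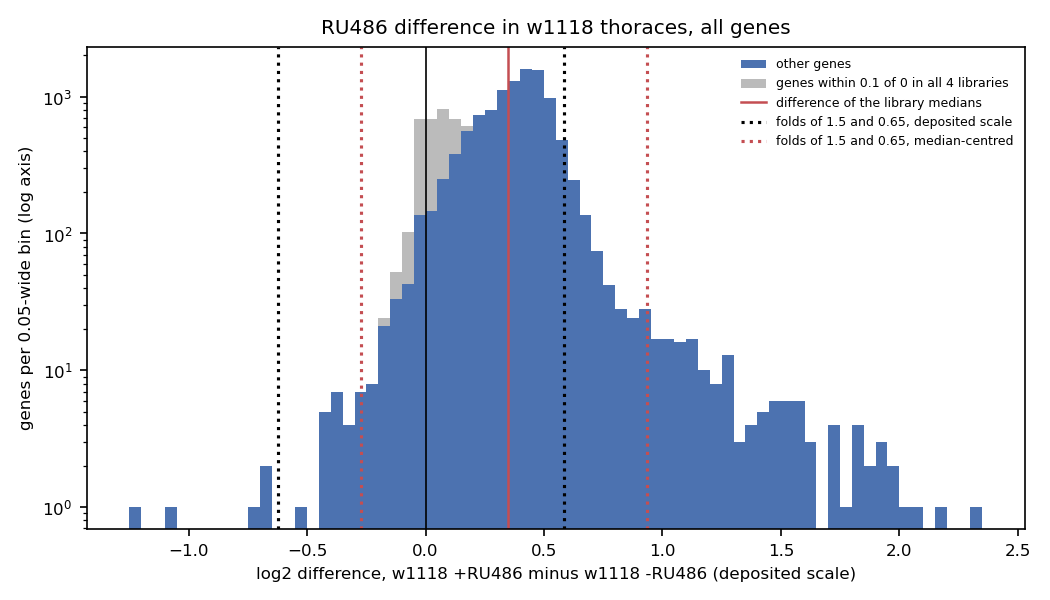
Histogram of the log2 difference between w1118 thoraces with and without RU486 (x axis, deposited scale) for all 13012 genes, with the number of genes per bin on a log axis. Most genes lie above 0, flat genes (grey) lie near 0, and the right tail reaches 2.33 while the left tail reaches -1.21.

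Mef2, the myogenic transcription factor targeted elsewhere in the series, had values of 0.22 with RU486 and -0.10 without it in w1118 flies, and -0.38 and 0.25 in the RNAi pair, which gave centred differences of -0.03 and -0.26. Act88F, the flight muscle actin whose promoter the driver uses, had 0.34 and -0.18 in w1118 flies and a centred difference of 0.17. It is the endogenous gene, and the driver transgene itself was not analysed here. The gene white (w), an eye pigment transporter that the w1118 allele disrupts and that transgenes often carry as a marker, had -0.38 and -0.78 in w1118 flies, a centred difference of 0.05. In MEF2 RNAi flies its values were -0.06 with RU486 and 1.22 without it.

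The 20 largest rises all had their highest value in the +RU486 library of w1118 flies, between 1.0 and 1.74. Ranking genes by their rise in that library fixes this in part, since a gene's values sum to 0. Mur18B (chromosome X, 19213254 to 19214938 on BDGP6, as are all positions here, the authors' build being not given in the sources used here), a mucin-related protein, led them. Its values were 1.74 with RU486 and -0.60 without it in w1118 flies, and -0.59 and -0.55 in MEF2 RNAi flies, so that 3 libraries lay together and 1 stood 2.28 above them. Muc11A, another mucin-type gene, had 1.55, -0.50, -0.50 and -0.55 in the same order, and it overlaps Ten-a and a long non-coding RNA on the same strand. Their centred differences were 1.98 and 1.70. Mur18B and Muc11A were among 14 of the 20 genes that were higher in w1118 flies and not in MEF2 RNAi flies. In these 14, the other 3 libraries ranged from -0.70 to -0.01, and the deposited MEF2 RNAi difference lay within 0.2 of 0 in 13. Leaving out the genes that were higher in MEF2 RNAi flies fixes this in part.

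**Figure D2:**
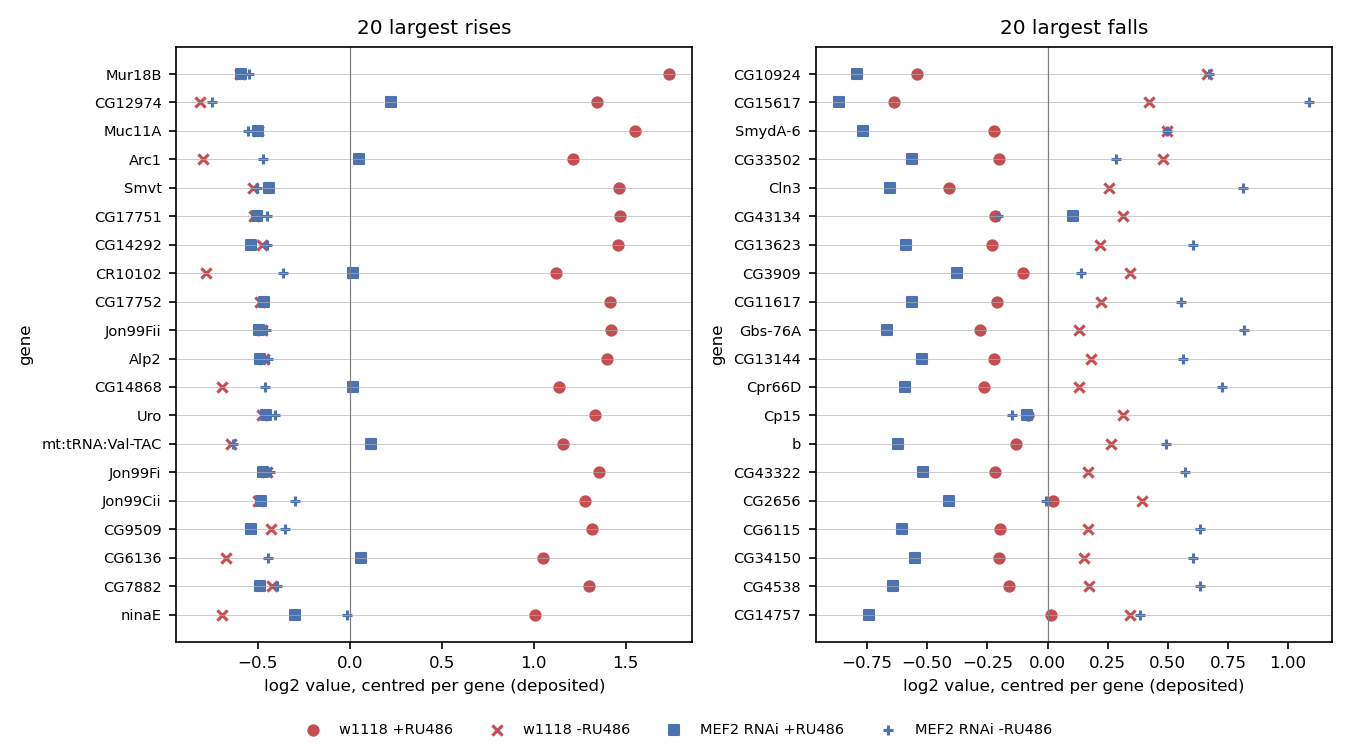
Deposited log2 values, centred per gene, of the 20 genes with the largest rises (left) and the 20 with the largest falls (right) in w1118 thoraces, 1 point per library (circles and crosses, w1118 with and without RU486; squares and plus signs, MEF2 RNAi with and without). On the left the w1118 +RU486 circle is the rightmost point of every gene, and on the right the w1118 points mostly lie between the MEF2 RNAi points.

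Among these 14, Smvt, a sodium-dependent multivitamin transporter, had 1.47 with RU486 and -0.52 without it in w1118 flies, and -0.44 and -0.50 in MEF2 RNAi flies. CG17751 and CG17752, which belong to the organic cation transporter family, had 1.47 and 1.42 with RU486 and -0.52 and -0.48 without it. They lie 902 bp apart on chromosome 3R. Alp2, an alkaline phosphatase, had 1.40 and -0.47. CG9509 (fiz), a GMC oxidoreductase, had 1.32 and -0.43, and CG7882, which an annotated antisense RNA (CR46269) overlaps, had 1.30 and -0.42. Outside the 20 and picked after their values were seen, CG16727, which lies 943 bp beyond the CG17751 pair, was higher by 0.73, and NaPi-T, a sodium-phosphate cotransporter, had 1.04 and -0.50. In MEF2 RNAi flies none of these 8 genes was higher, with centred differences from 0.18 for CG9509 and NaPi-T to 0.43 for Smvt.

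Uro (chromosome 2L, 7780085 to 7781415) encodes urate oxidase, an enzyme of the Malpighian tubule, the fly's renal organ. It had 1.33 with RU486 and -0.48 without it in w1118 flies, against -0.45 and -0.40 in MEF2 RNAi flies. Because Uro appeared among the leading genes, a list of 24 tubule genes was drawn up after the values were seen. It had a median of 0.20, against 0.01 over all genes, and 19 of the 24 had their highest value in the w1118 +RU486 library, as did 44.6% of all genes. Uro, salt (0.77) and Oatp58Db (0.59), an organic anion transporter, were higher, while CapaR, the receptor for the diuretic capa peptides, had -0.39. On the deposited scale CapaR had -0.04. The list median was -0.05 in the RNAi pair, with no member higher. In a bulk sample, more cells of a type cannot be told apart from more RNA per cell. The part of tubule tissue in the result was not tested.

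The Jonah serine proteases, digestive enzymes of the midgut, had centred differences with an interquartile range of -0.09 to 1.17. All 15 had their highest value in the w1118 +RU486 library, as did 44.6% of all genes. Of the 15, 5 were higher, against 1.25% of all genes, and the median was 0.27. Jon99Fii had 1.42 with RU486 and -0.47 without it in w1118 flies, and -0.49 and -0.45 in MEF2 RNAi flies. Jon99Fi followed with 1.35 against -0.45 in w1118 flies, Jon99Cii with 1.28 against -0.50, Jon25Biii with 1.18 against -0.39 and Jon99Ciii with 1.04 against -0.42. Members of the Jon99 pairs are close copies of each other, and how reads that match both were counted is not stated. The other 10 Jonah genes ranged from -0.20 for Jon65Aiii to 0.54 for Jon65Ai.

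The list of 39 further digestive enzymes had a median of 0.01, with no member higher, and 12 of the 39 were flat. Its leading members were alphaTry at 0.58 and Amy-d at 0.39, and Mal-A5, a maltase, had -0.44. Of 18 gut markers, Mur18B was the only one higher. Outside these lists, and picked after their values were seen, the peptidase genes CG12374, CG10472 and CG11911 were higher by 1.11, 0.79 and 0.78. GATAe, the midgut transcription factor, had -0.14, Myo31DF, a myosin of the enterocyte brush border, had 0.23, and mex1 had -0.05. The part of gut tissue in the Jonah and mucin values was not tested.

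Some photoreceptor transcripts were also higher in the control pair. ninaE, which encodes the main rhodopsin Rh1, had 1.0 with RU486 and -0.70 without it in w1118 flies, and -0.30 and -0.01 in MEF2 RNAi flies. Arr1 and Arr2, the arrestins that end the rhodopsin signal, had 0.82 and 0.75 with RU486 and -0.43 and -0.39 without it. Their centred differences were 1.35, 0.90 and 0.79 in w1118 flies, and 0.08, 0.12 and 0.11 in MEF2 RNAi flies. In the list for eye and head, 4 of 18 genes were higher, against 1.25% of all genes. They were these 3 and inaD, a scaffold of the phototransduction complex, at 0.59. Of the 18, 16 had their highest value in the w1118 +RU486 library, as did 44.6% of all genes, and the median was 0.17. The rhodopsins Rh3, Rh4 and Rh6 had -0.01, -0.20 and 0.01, the phospholipase norpA had 0.04 and the channel trp had 0.29. Rh5, outside that list, was higher at 0.68. For neurons as a whole the list of 20 genes had a median of -0.01 with no member higher, from -0.35 for Rdl to 0.15 for elav. On the deposited scale Rdl had 0.003. Of these 20 genes, 16 also had their highest value in the w1118 +RU486 library. That share therefore does not set the eye or tubule genes apart. The part of head tissue in these values was not tested.

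**Figure D3:**
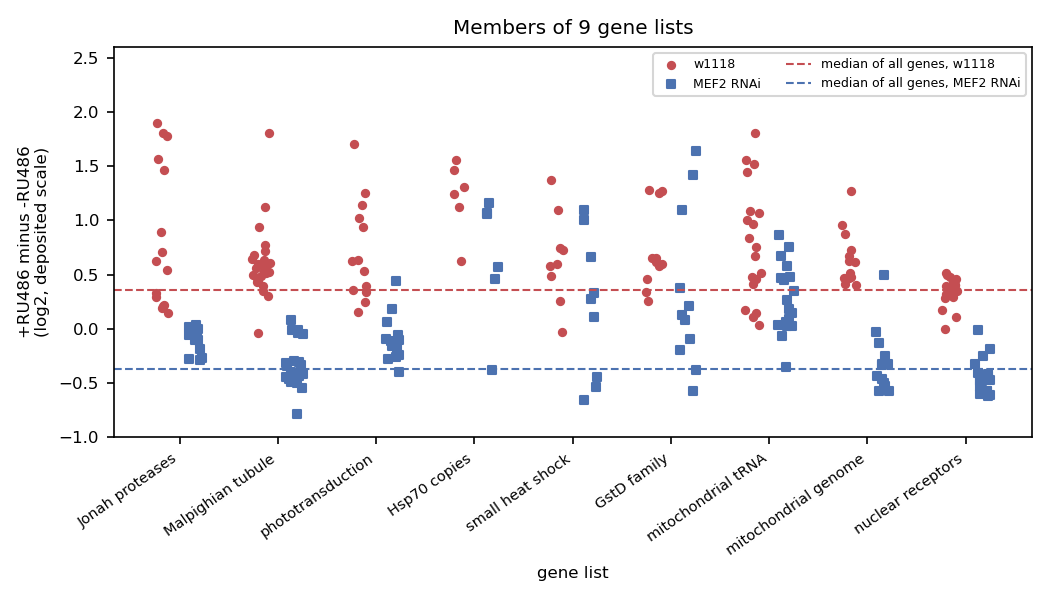
Log2 difference with minus without RU486 on the deposited scale for each member of 9 gene lists (red circles, w1118; blue squares, MEF2 RNAi), with the median of all genes of each genotype as a dashed line. The leading Jonah, tubule and photoreceptor genes stand far above the red line in w1118 flies, whereas 5 of the 6 Hsp70 copies, 3 GstD genes and the leading mitochondrial tRNAs stand above the lines in both genotypes.

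The 2 genotypes share no library, but their values stand in the same table and were normalized by a method that is not given. The 2 differences of a gene may therefore not be independent. Over all genes, flat ones included, the centred differences of the 2 genotypes had a Pearson correlation of -0.16. Of the 162 genes higher in w1118 flies, 65 (40.1%) were also higher in MEF2 RNAi flies, where 278 genes (2.14%) were higher, so that the shared genes made up 23.4% of that list. No gene of the 162 was lower in MEF2 RNAi flies. In all 65, both +RU486 libraries lay above both ethanol libraries, an order that the choice of these genes fixes in part. In 62 the w1118 +RU486 library was the highest of the 4, as in 44.6% of all genes.

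Heat shock genes were among the shared ones. Hsp70Bc, an inducible chaperone of the HSP70 family, had 0.81 with RU486 and -0.75 without it in w1118 flies, and 0.55 and -0.61 in MEF2 RNAi flies. Hsp70Ab had 0.73 and -0.74, then 0.54 and -0.53, and Hsp70Bbb had 0.64 and -0.60, then 0.51 and -0.55. Of the 6 Hsp70 copies, a list drawn up after the values were seen, 5 were higher in w1118 flies and 5 in MEF2 RNAi flies. Over all genes 1.25% and 2.14% were higher. The medians of the 6 copies were 0.93 and 1.18. The exceptions differed: Hsp70Ba had 0.28 in w1118 flies and 0.82 in MEF2 RNAi flies, and Hsp70Bb had 0.78 and -0.01. The copies are nearly identical in sequence, so the split of reads between them is uncertain.

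Among the small heat shock genes, Hsp26 had 0.60 with RU486 and -0.78 without it in w1118 flies, and 0.59 and -0.41 in MEF2 RNAi flies. Hsp23 had 0.58 and -0.52, then 0.30 and -0.36. Those 2 of 9 were higher in w1118 flies, by 1.02 and 0.75, against 1.25% of all genes, and the list median was 0.25. In MEF2 RNAi flies 5 of the 9 were higher, against 2.14% of all genes. The constitutive chaperones lay under the fold. Hsp83 had 0.06, Hsc70-3 0.17, Hsc70-4 0.23 and Hsp60A 0.20, and Hsf, the transcription factor of the heat shock response, had 0.05. The co-chaperones DnaJ-1 and stv had 0.37 and 0.08.

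Several shared genes lie beside the heat shock genes. aurA (chromosome 3R, 11963124 to 11964826), the mitotic kinase Aurora A, had 0.85 with RU486 and -0.78 without it in w1118 flies, and 0.51 and -0.59 in MEF2 RNAi flies. Its centred differences were 1.28 and 1.46. Between it and Hsp70Ab lies CG3281, whose annotation overlaps Hsp70Ab on the opposite strand and ends 318 bp from aurA, and which was higher by 0.62 and 0.75. Incenp, an inner centromere protein that acts with Aurora B, lies on chromosome 2R and not beside these genes. It had 0.54 and -0.53 in w1118 flies and 0.54 and -0.55 in MEF2 RNAi flies, with centred differences of 0.72 and 1.45. aurA and Incenp were the only 2 of 45 cell cycle genes higher in w1118 flies, against 1.25% of all genes, and the list median was -0.05. The MEF2 RNAi pair had 26 of the 45 higher, against 2.14% of all genes. The list median there was 0.76, or 0.40 on the deposited scale.

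Glutathione S-transferases of the GstD group, which conjugate glutathione to foreign compounds and oxidised lipids, were shared in part. GstD5 had 0.51 with RU486 and -0.76 without it in w1118 flies, and 0.95 and -0.69 in MEF2 RNAi flies. GstD6 had 0.56 and -0.69, then 0.77 and -0.64, and GstD7 had 0.65 and -0.64, then 0.55 and -0.55. Their centred differences were 0.92, 0.90 and 0.93 in w1118 flies and 2.01, 1.78 and 1.46 in MEF2 RNAi flies. These 3 genes sit in a row on chromosome 3R, 555 bp and 592 bp apart on the same strand. The other 8 GstD genes in the table ranged from -0.09 for GstD4 to 0.31 for GstD2 in w1118 flies. Over 35 glutathione S-transferases the median was 0.11, and it became -0.03 with ribosomal protein genes as the reference.

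Mdr50, an ABC transporter of the multidrug resistance type, had 0.99 and -0.44 in w1118 flies and -0.06 and -0.49 in MEF2 RNAi flies, with centred differences of 1.08 and 0.79, and was the only one of 12 efflux transporters higher. Cyp6a18 was the only one of 85 cytochrome P450 genes higher, a share near the 1.25% of all genes, with 1.14 and -0.35 in w1118 flies and -0.41 and -0.38 in MEF2 RNAi flies. The P450 list had a median of 0.05 and ranged down to -0.37 for Cyp316a1, which had -0.02 on the deposited scale. No member of the list of 18 UDP-glycosyltransferases was higher or lower, and its median was -0.03. In the antioxidant list the median was 0.08, with 0.18 for the stress transcription factor cnc and 0.16 for its inhibitor Keap1.

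**Figure D4:**
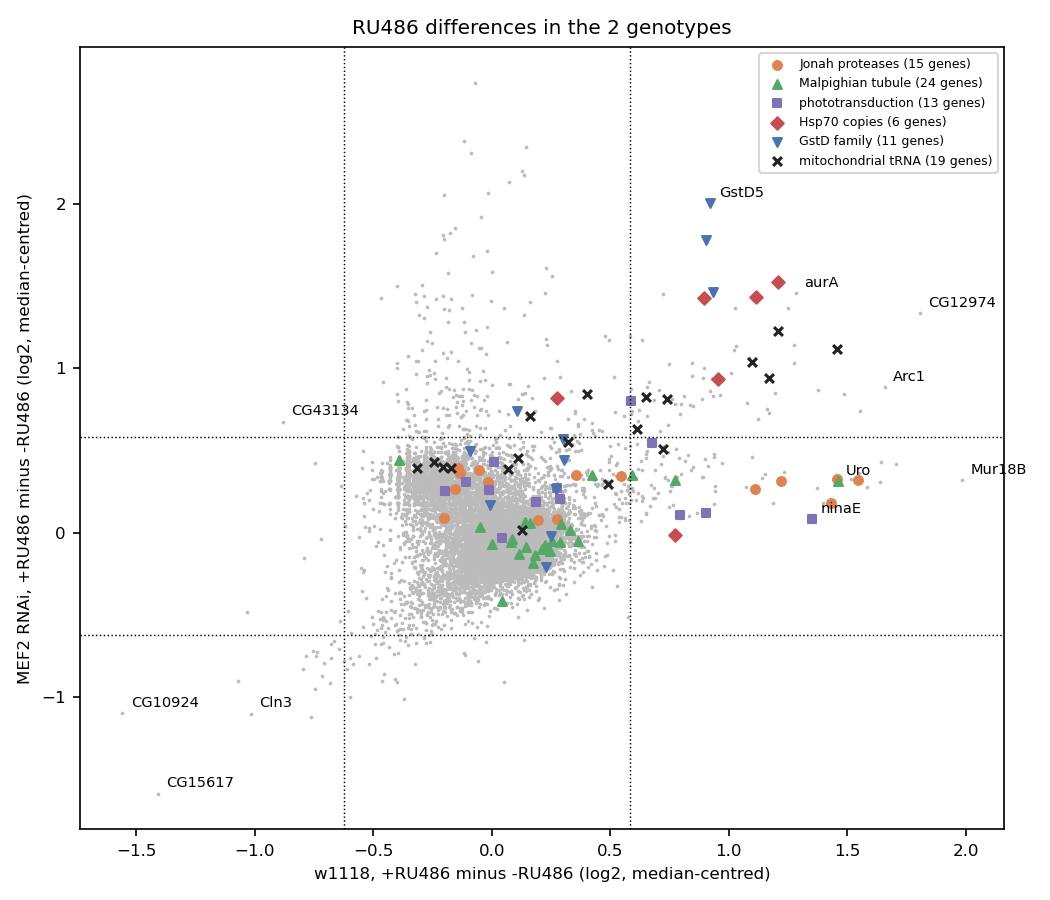
Median-centred log2 difference with minus without RU486 in w1118 flies (x axis) against MEF2 RNAi flies (y axis), 1 point per gene, with members of 6 lists marked and the folds of 1.5 and 0.65 as dotted lines. Uro, ninaE and the 5 leading Jonah genes lie to the right and under the upper dotted line of the y axis. GstD5 (0.92 and 2.01), aurA and the Hsp70 copies other than Hsp70Ba and Hsp70Bb lie at the upper right. CG10924 and CG15617 lie at the lower left.

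The largest rise common to both pairs was that of CG12974 (chromosome 3L, 21281752 to 21285962), with 1.34 and -0.82 in w1118 flies and 0.22 and -0.75 in MEF2 RNAi flies. CCHa1-R, a receptor for the neuropeptide CCHamide-1, had 1.01 and -0.62, then 0.19 and -0.58. CG8136 had 0.90 and -0.70, then 0.40 and -0.60. The centred differences were 1.81 and 1.34 for CG12974, 1.28 and 1.14 for CCHa1-R, and 1.25 and 1.37 for CG8136. Arc1, which encodes a capsid-forming protein related to retrotransposon Gag that carries mRNA across the neuromuscular junction, had 1.21 and -0.80 in w1118 flies and 0.05 and -0.47 in MEF2 RNAi flies. The pseudogene CR10102, 135 bp from Arc1 on the same strand of chromosome 2R, had 1.12 and -0.78, then 0.02 and -0.36. CG14868 and CG6136 form a like pair 90 bp apart, with centred differences of 1.49 and 1.38 in w1118 flies and 0.85 and 0.87 in MEF2 RNAi flies.

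Neighbours often moved together. Of the 160 higher genes with a position in the annotation, 49 (30.6%) had another higher gene within 1000 bp, against 261 of 12963 (2.01%) of all genes with a position. Without the mitochondrial genome, where genes adjoin, the shares were 26.2% and 1.82%. The pairs included paralogs (the GstD, Hsp70, Jon99 and CG17751 groups), unrelated genes such as RnrL, the large subunit of ribonucleotide reductase, and Schip1 (0.69 and 1.12), and genes with their antisense RNAs such as Ucp4B and CR43465 (1.02 and 1.03). The library kit keeps strand, but whether counting used it is not stated, so reads of overlapping genes may have been counted for both.

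Mitochondrially encoded RNAs differed unevenly. All 19 mitochondrial tRNAs had their highest value in the w1118 +RU486 library, as did 44.6% of all genes. Of the 19, 3 were flat. In this list, drawn up after the values were seen, 8 were higher, against 1.25% of all genes, and the median was 0.40. The tRNA for valine (mt:tRNA:Val-TAC) had 1.16 and -0.65 in w1118 flies and 0.12 and -0.63 in MEF2 RNAi flies, and that for asparagine (mt:tRNA:Asn-GTT) had 0.97 and -0.59, then 0.25 and -0.62. In MEF2 RNAi flies 9 of the 19 were higher, against 2.14% of all genes. The median of the 19 there was 0.55, or 0.18 on the deposited scale. Of the 13 protein-coding mitochondrial genes, mt:ND4L (0.92) and mt:ND3 (0.61), subunits of complex I, were higher. The others ranged from 0.06 for mt:CoI and 0.07 for mt:CoIII, the cytochrome oxidase subunits, to 0.53 for mt:ND6. The small ribosomal RNA, mt:srRNA, was higher by 0.75. It adjoins mt:tRNA:Val-TAC with a gap of 0 bp, and how reads across such genes were counted is not stated.

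Of 8 pseudogenes of nuclear ribosomal RNA, 6 were higher in w1118 flies and 0 in MEF2 RNAi flies, where 1.25% and 2.14% of all genes were. The leading copy, 28SrRNA-Psi:CR45855, had 0.98 with RU486 and -0.53 without it, against -0.23 and -0.22 in MEF2 RNAi flies. The list, likewise a later choice, had a median of 0.80, and reads of these copies cannot be separated from those of the functional ribosomal RNA genes. By class of gene, 8 of 38 tRNA genes (21.1%) and 7 of 125 pseudogenes (5.60%) were higher, against 138 of 11423 protein-coding genes (1.21%), and 8 of those tRNA genes were the mitochondrial ones. Among protein-coding genes the median difference went from -0.11 in the fifth with the shortest exon length to 0.09 in that with the longest. With flat genes left out the range was -0.03 to 0.09.

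In 19 of the 25 lower genes the MEF2 RNAi ethanol library was highest and the MEF2 RNAi +RU486 library lowest. Between them the w1118 ethanol library lay above the w1118 +RU486 library. Of all genes 2.79% had this order, which the choice of lower genes fixes in part. Of the 25 lower genes, 18 (72%) were also lower in MEF2 RNAi flies, where 57 genes (0.438%) were lower, so that the shared genes made up 31.6% of that list. CG10924 (Pepck2, chromosome 2R, 18527430 to 18535749), a phosphoenolpyruvate carboxykinase, had the largest fall. Its values were -0.54 with RU486 and 0.66 without it in w1118 flies, and -0.79 and 0.67 in MEF2 RNAi flies, which gave centred differences of -1.56 and -1.10. CG15617 followed with -0.64 and 0.42, then -0.87 and 1.09, or -1.41 and -1.59 after centring. On the deposited scale only these genes, SmydA-6, CG33502 and Cln3 were lower.

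Cln3, a lysosomal membrane protein, had -0.41 and 0.26 in w1118 flies and -0.65 and 0.81 in MEF2 RNAi flies. SmydA-6, of a family of SMYD-domain proteins, had -0.22 and 0.50, then -0.77 and 0.50. Gbs-76A, a glycogen-binding subunit of protein phosphatase 1, had -0.28 and 0.13, then -0.67 and 0.82. The gene black (b), which encodes the aspartate decarboxylase that makes beta-alanine for cuticle tanning, had -0.13 and 0.26, then -0.62 and 0.49. Their centred differences in w1118 flies were -1.02, -1.07, -0.76 and -0.74. CG4538 (ClpX), the unfoldase of a mitochondrial protease, and mRpS7, a mitochondrial ribosomal protein, had -0.68 and -0.64.

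Of the 20 largest falls, 5 did not reach the fold in MEF2 RNAi flies. Cp15, a chorion protein, had -0.08 with RU486 and 0.32 without it in w1118 flies, and -0.09 and -0.15 in MEF2 RNAi flies. CG43134 had -0.22 and 0.32 in w1118 flies and 0.11 and -0.21 in MEF2 RNAi flies, and was the only one of the 25 genes that was higher there (-0.88 against 0.68). CG33502 had -1.03 and -0.48, CG3909 had -0.79 and -0.15, and CG2656 had -0.72 and -0.04. Other annotated genes overlap 9 of the 20 largest falls and 4 of the 20 largest rises, against 54.6% of all genes.

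Of 19 nuclear receptors none was higher or lower, where 1.25% and 0.192% of all genes were. Their median was 0.03. The ecdysone receptor EcR had 0.22 and -0.23 in w1118 flies and its partner usp had 0.24 and -0.26, with centred differences of 0.11 and 0.14. The receptors ranged from -0.35 for dsf, a flat gene, to 0.17 for Hr38, and Hr96, a receptor of xenobiotic and lipid response, had 0.05. The 22 genes of the ecdysone response had a median of -0.01, and the leading members were ImpL2, an insulin-binding protein, at 0.37, Eip71CD at 0.31 and Eip74EF at 0.30. The 10 genes of ecdysone synthesis had a median of -0.07, and 4 of them were flat. Of 11 genes of juvenile hormone signalling none passed either fold, and Kr-h1, its transcriptional target, had 0.22.

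Of 34 muscle structure genes, 6 passed a fold of 1.5 on the deposited scale, where 6.54% of all genes did, and none after centring. The list median was 0.12, which became -0.02 with ribosomal protein genes as the reference. Mlc2, a myosin light chain, had 0.43, flightin (fln), a thick filament protein of flight muscle, had 0.41, the myosin heavy chain Mhc had 0.22 and TpnC4, the flight muscle troponin C, had -0.46. The 78 nuclear genes of oxidative phosphorylation had a median of -0.07, from -0.47 for ND-AGGG to 0.47 for ATPsyngamma. Glycolysis had a median of 0.05 with Pglym87 at -0.32 (0.03 on the deposited scale) and Gpo-1 at 0.30. In the TCA cycle kdn, the citrate synthase, had 0.67 and -0.43 in w1118 flies and was the only member higher, at 0.75.

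**Figure D5:**
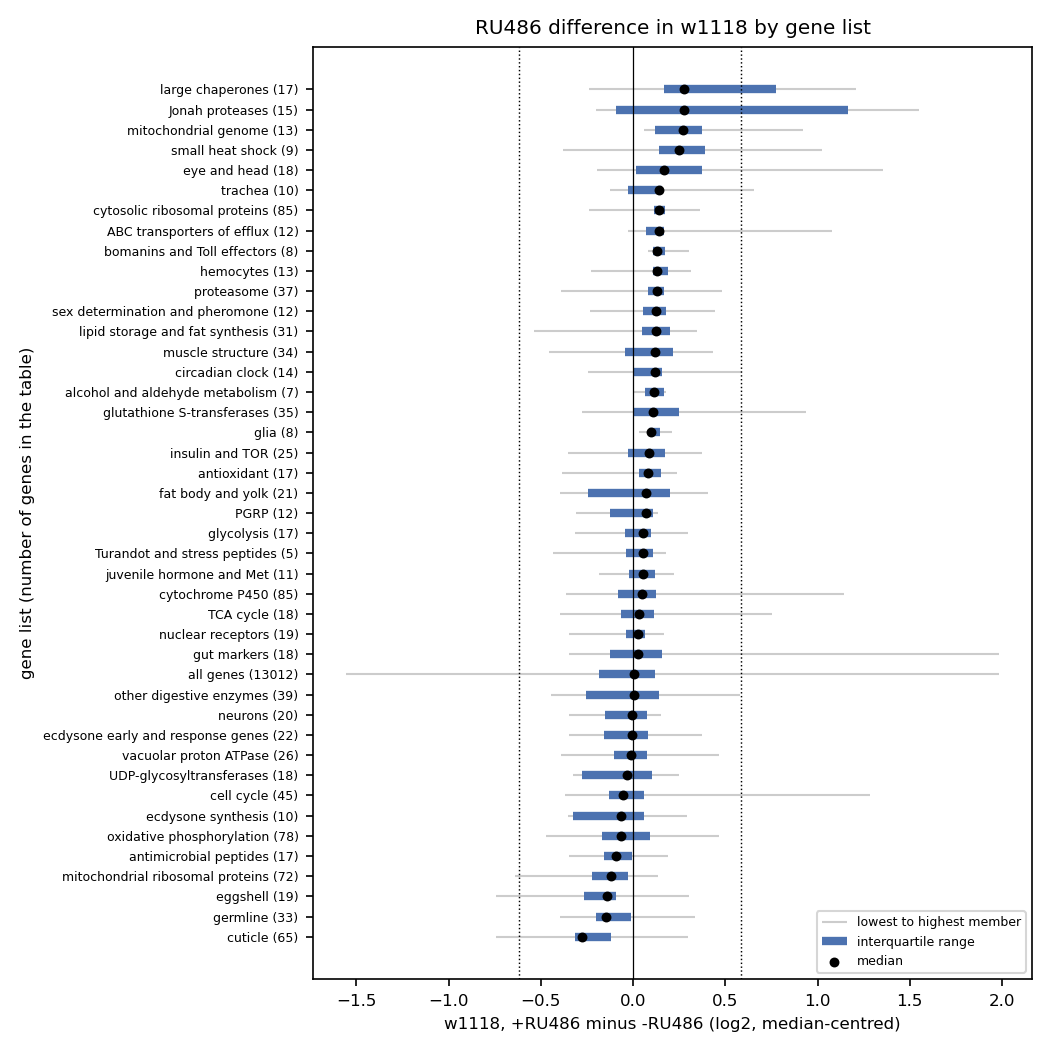
Median (black point), interquartile range (blue bar) and full range (grey line) of the median-centred log2 difference in w1118 thoraces for the gene lists and for all genes, with the number of genes in the table and dotted lines at folds of 1.5 and 0.65. Lists drawn up after the values were seen and a list of 3 flight muscle paralogs are not plotted. The medians of the plotted lists run from -0.28 for cuticle to 0.28 for large chaperones, and none of these reaches a fold threshold.

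The 31 genes of lipid storage and fat synthesis had a median of 0.12, with the fatty acid synthases FASN2, FASN3 and FASN1 at 0.35, 0.35 and 0.34, and Akh, the adipokinetic hormone, at -0.54. The 25 genes of insulin and TOR signalling had a median of 0.09. The yolk proteins Yp1, Yp2 and Yp3 had 0.23, 0.25 and 0.21, within a fat body list whose median was 0.07. With ribosomal protein genes as the reference these 3 medians became -0.02, -0.05 and -0.07. Antimicrobial peptides had a median of -0.09, with DptB at 0.19 and CecA1 at -0.35. On the deposited scale CecA1 had 0.0007. Of 14 circadian clock genes tim was higher, with 0.45 and -0.49 in w1118 flies and a centred difference of 0.59, while its partner per had 0.21.

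The 33 germline genes had a median of -0.15 with none higher in w1118 flies. In the RNAi pair their median was 0.89 with 24 higher, against 2.14% of all genes. On the deposited scale the medians were 0.20 and 0.53, and the difference between the genotypes was not tested. osk, a determinant of the germ plasm, had -0.14 and -0.63 in w1118 flies and 1.38 and -0.61 in MEF2 RNAi flies. Only 2 of the 33 had their highest value in the w1118 +RU486 library, against 15 of 19 eggshell genes and 44.6% of all genes. The eggshell list, with 6 of 19 flat and Cp15 lower in w1118 flies, had deposited medians of 0.21 and -0.0021. Its centred medians of -0.14 and 0.36 differ from these by the centring, and the 0.36 is no rise. Cuticle genes had a median of -0.28, and -0.11 once the 36 flat members of 65 were left out.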

How the data were processed

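RNA-seq libraries from thoraces were made with the TruSeq stranded total RNA kit, 1 per condition, and grouped by the genotype and treatment in the sample labels. The deposited file holds log2 values of 13012 genes, in 4 columns matched to samples by title. Its name calls the values normalized. The aligner, counter, genome build, annotation and normalization are not given in the sources used here. Every gene's 4 values add up to 0 (largest departure 7.0e-15), and 1963 genes share all 4 values with another gene (106 in the largest such set). Depth and expression levels cannot be recovered, so no counting interval is given.

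Differences were taken as +RU486 minus -RU486, and again after each library's median over all genes was subtracted (0.35 in w1118 and -0.36 in MEF2 RNAi flies). Folds of 1.5 and 0.65 follow the study's heat maps. Alternatives were folds of 2 and 0.5, other references (the median of cytosolic ribosomal protein genes, the most populated bin 0.05 wide), leaving out flat genes or genes with shared values, the mean of the other 3 libraries as baseline and, added after the data were seen, protein-coding genes only. No test was run, since there are no replicates. Genes were named by rule: the 20 largest rises and 20 largest falls, the 10 largest rises and falls common to both genotypes, list members, Mef2 and white. Genes named outside that rule (CG16727, NaPi-T, CG3281, RnrL, Schip1, Ucp4B, mt:srRNA, CR46269, CR43465, Ten-a, CG12374, CG10472, CG11911, the genes nearest the thresholds and 6 of the closing section) were picked after their values were seen. The comparison and the lists were chosen with earlier results of these data known. The lists of Malpighian tubule, mitochondrial tRNA, ribosomal RNA pseudogene, GstD, Hsp70 and phototransduction genes were added after the values were seen, and 6 members that did not belong to their lists (3 of eggshell, 2 of gut, 1 of muscle) were then removed.

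Positions and gene classes were read from Ensembl 115 (BDGP6), where 12966 names were found. The code was tested on simulated data. Calculations used Python 3.11.15, numpy 2.4.6, pandas 2.3.3 and matplotlib 3.10.9.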

Additional observations from a re-analysis of the deposited data

Results flagged for a closer look

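The median difference of all genes had opposite signs in the genotypes, 0.36 in w1118 flies and -0.38 in MEF2 RNAi flies on the deposited scale. CG43134 moved the opposite way to that, with a median-centred difference of -0.88 in w1118 flies and 0.68 in MEF2 RNAi flies. The part of the authors' normalization in the opposite medians was not tested. With 1 library per condition, neither difference between the genotypes was tested.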

How the results depend on the processing

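The counts followed the reference and the fold. On the deposited scale the 851 higher and 5 lower genes became 112 and 68 with cytosolic ribosomal protein genes as the reference, and 134 and 2 at folds of 2 and 0.5. Against the mean of the other 3 libraries 287 genes were higher. After median-centring, the 162 higher and 25 lower genes became 50 and 5 at folds of 2 and 0.5, and 68 and 39 genes were lower with the ribosomal protein genes and the most populated bin as the reference. The references lay at 0.49 for ribosomal protein genes, 0.425 for the bin and 0.35 for the difference of the library medians. Leaving out flat genes or genes with shared values kept each count within 1.5 times. Of the list medians (all genes included), 37 were above 0 and 12 below after median-centring, against 13 and 35 with the ribosomal protein genes as the reference. No paired analysis was possible because there is 1 library a side and no test.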

Other observations

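The following genes of the 162 higher ones in w1118 flies are on none of the lists described above, except kdn, and were picked after their values were seen. The odorant receptors Or2a and Or9a had median-centred differences of 0.76 and 0.59 in w1118 flies and 0.81 and 0.74 in MEF2 RNAi flies. Fancd2, a protein of the Fanconi anaemia pathway, had 0.79 and 0.72, and mus101, a replication checkpoint protein, had 0.81 and 0.83. kdn, Ant2, an ADP/ATP translocase, and Osbp, an oxysterol-binding protein, had 0.75, 0.83 and 0.97 in w1118 flies and 0.25, 0.47 and 0.43 in MEF2 RNAi flies. Of the 162 higher genes, 41 had a w1118 +RU486 value at least 1 above each of the other 3 libraries, and 7 of those 41 were also higher in MEF2 RNAi flies.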
